A study of Mus musculus with 6 samples.

Results

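Germline and meiosis genes were followed in mouse embryonic stem cells (ESCs) with and without the RNA-binding protein gene Hnrnpf. The 10 genes, taken by symbol from the 25170 rows of the deposited expression table, were Stra8, Dazl, Mael, Sycp3, Taf7l, Tex19.1, Tex101, Hormad1, Stk31 and Fmr1nb, and all 10 were found. RNA-seq covered 6 libraries of E14, an established ESC line. The groups were Hnrnpf KO cells (2 libraries, numbered 1 and 2) and wild type (WT) cells (1 library) after LIF removal for 4 days, and Hnrnpf KO cells (2 libraries) and WT cells (1 library) in serum medium with leukemia inhibitory factor (LIF). LIF is a cytokine that sustains the undifferentiated state of mouse ESCs. The labels do not say how the knockout was made, whether numbers 1 and 2 are separate clones, or whether a number marks the same line in both media. The p-values therefore measure only how much these libraries varied, and that variation may be technical.

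Most germline genes are kept silent or low in ESCs and in somatic cells. In mouse ESCs this is known to involve DNA methylation of their CpG-rich promoters and a Polycomb complex that holds the DNA-binding proteins MGA, MAX and E2F6. MGA with MAX binds the E-box CACGTG and E2F6 binds sites with TCCCGC. A few germline genes, such as Tex19.1 and Dazl, are known to be transcribed in pluripotent cells as well. Retinoic acid, acting through its nuclear receptors, induces Stra8 at the entry into meiosis.

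Promoter windows from RefSeq (GRCm38.p6, the same assembly as mm10, 250 bases before to 50 after the start of transcription) were found for all 10 genes. Those of the 5 genes that passed a threshold in a comparison over both media or both genotypes are shown 5′ to 3′ on the gene's strand, so that the letters near each start can be set beside the values. Capitals mark every match, on either strand, to the E-box CACGTG, to the E2F6 motif TCCCGC and to AGGTCA, the core motif bound by retinoic acid receptors. No match overlapped another. All 5 lie on the plus strand: Stra8 at chr6:34920698-34920997, Hormad1 at chr3:95559427-95559726, Stk31 at chr6:49395289-49395588, Tex19.1 at chr11:121145893-121146192 and Fmr1nb at chrX:68761589-68761888.
Stra8: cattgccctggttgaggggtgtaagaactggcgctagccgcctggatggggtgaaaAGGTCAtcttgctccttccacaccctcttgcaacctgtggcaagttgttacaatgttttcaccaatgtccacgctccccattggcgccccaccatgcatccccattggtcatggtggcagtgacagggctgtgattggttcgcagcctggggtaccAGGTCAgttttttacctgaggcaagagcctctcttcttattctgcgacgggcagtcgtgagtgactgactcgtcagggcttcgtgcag
Hormad1: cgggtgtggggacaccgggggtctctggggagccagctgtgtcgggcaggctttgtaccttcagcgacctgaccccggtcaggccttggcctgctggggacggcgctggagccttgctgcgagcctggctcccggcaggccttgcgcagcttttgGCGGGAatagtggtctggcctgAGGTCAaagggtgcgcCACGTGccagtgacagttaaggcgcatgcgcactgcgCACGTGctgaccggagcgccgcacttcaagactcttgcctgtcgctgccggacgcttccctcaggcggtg
Stk31: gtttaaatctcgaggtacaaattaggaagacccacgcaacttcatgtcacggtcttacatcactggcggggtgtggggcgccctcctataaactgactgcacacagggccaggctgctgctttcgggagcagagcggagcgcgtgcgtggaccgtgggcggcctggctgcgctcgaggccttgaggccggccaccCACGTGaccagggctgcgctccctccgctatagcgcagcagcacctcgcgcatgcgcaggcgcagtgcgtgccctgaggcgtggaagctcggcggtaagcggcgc
Tex19.1: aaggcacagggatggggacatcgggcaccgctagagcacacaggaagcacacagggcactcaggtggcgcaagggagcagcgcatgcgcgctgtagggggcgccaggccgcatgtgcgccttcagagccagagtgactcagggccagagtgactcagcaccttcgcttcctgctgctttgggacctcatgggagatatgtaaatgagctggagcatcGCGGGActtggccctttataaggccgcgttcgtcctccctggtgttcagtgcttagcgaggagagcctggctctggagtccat
Fmr1nb: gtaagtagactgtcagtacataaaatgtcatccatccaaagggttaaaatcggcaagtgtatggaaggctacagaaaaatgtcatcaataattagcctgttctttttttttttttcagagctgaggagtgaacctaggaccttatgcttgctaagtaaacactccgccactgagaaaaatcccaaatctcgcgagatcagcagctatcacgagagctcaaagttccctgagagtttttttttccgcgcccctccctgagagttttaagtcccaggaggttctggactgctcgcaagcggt

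Of the 10 promoters, 5 held CACGTG, those of Mael, Sycp3, Taf7l, Hormad1 and Stk31. The motif was present in 10.8% of the 9459 promoter windows of genes tested here and in 7.24% of all 27025 windows. Hormad1 held it at 57 and 20 bases before the start and Sycp3 at 64 and 43 bases before, while 1.26% of the windows of tested genes held it at least in duplicate. TCCCGC was in 4 of the 10 (Mael, Sycp3, Tex19.1 and Hormad1), against 37.4% of windows of tested genes, and AGGTCA in 3 (Stra8, Sycp3 and Hormad1), against 11.8%. Stra8 held AGGTCA at 194 and 38 bases before the start. A window held between 9 and 29 CpG, with a median of 18 for the 10 genes and 21 for tested genes; Stk31 (29), Dazl (28), Mael (24) and Hormad1 (24) held the most and Fmr1nb (9) the fewest. These matches describe the letters in the windows. Binding and methylation were not measured.

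Values are FPKM as deposited, a fragment number corrected for transcript length and library size. A library's FPKM summed to between 456155 and 556318, with 15510 to 16430 symbols above 0. Read counts were not used, so the depth behind a value is unknown and no counting interval is given. Hnrnpf stood at 28.4% and 8.28% of the WT value in KO libraries 1 and 2 after LIF removal, and at 28.9% and 10.8% with LIF. All 8 ESC markers (Pou5f1, Sox2, Nanog and others) were above 1 FPKM on average, and their sum was 1835 and 1780 FPKM in KO and 2276 in WT cells after LIF removal, against 2796 and 2822 in KO and 3271 in WT cells with LIF. Not every ESC marker was lower after LIF removal. Lin28a was at 165 and 200 FPKM in KO and 244 in WT cells after removal, against 138 and 165 in KO and 195 in WT cells with LIF. Sall4 was higher in KO number 1 and lower in number 2 and WT cells. The other markers were lower in each KO number and in WT cells. The part of this lower summed ESC marker level in the differences on LIF removal was not tested. Of 6 meiotic markers 3 averaged 1 FPKM or more: Dmc1, Hormad2 and Sycp1. The 6 summed to 13.2 and 7.88 FPKM in KO and 6.99 in WT cells after LIF removal. With LIF the sums were 19.6 and 19.9 FPKM in KO and 11.0 in WT cells. These markers did not move alike between genotypes. Hormad2, on chromosome 11, was above both WT libraries in every KO library, as for 11.9% of all tested genes. Dmc1 was above WT in KO number 1 and below it in number 2, in both media. With LIF, Sycp1 was at 1.77 and 1.81 FPKM in KO and 2.56 in WT cells. Of 6 markers of committed germ cells 2 averaged 1 FPKM or more (Ddx4 and Gfra1). Their list summed to 18.9 and 22.7 FPKM in KO and 14.01 in WT cells after LIF removal. With LIF it summed to 8.94 and 14.02 in KO and 6.44 in WT cells. The meiotic double-strand break enzyme Spo11 reached 0.197 FPKM at most, Nanos2 and the spermatid genes Prm2 and Tnp1 were at 0 in all 6 libraries, and the 5 spermatid markers summed to 0.648 FPKM at most.

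The 10 genes spanned a wide range of levels. Tex19.1 and Fmr1nb had the highest means over the 6 libraries, 80.9 and 30.8 FPKM, followed by Sycp3 (11.2), Mael (7.40) and Stra8 (5.17). Stk31 (2.81), Dazl (2.41) and Hormad1 (1.53) were low, and Taf7l (0.648) and Tex101 (0.640) lay under 1 FPKM. Testing covered the 11785 genes whose mean over the libraries reached 1 FPKM, and 8 of the 10 were among them. Taf7l and Tex101 are given by their levels.

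**Figure D1:**
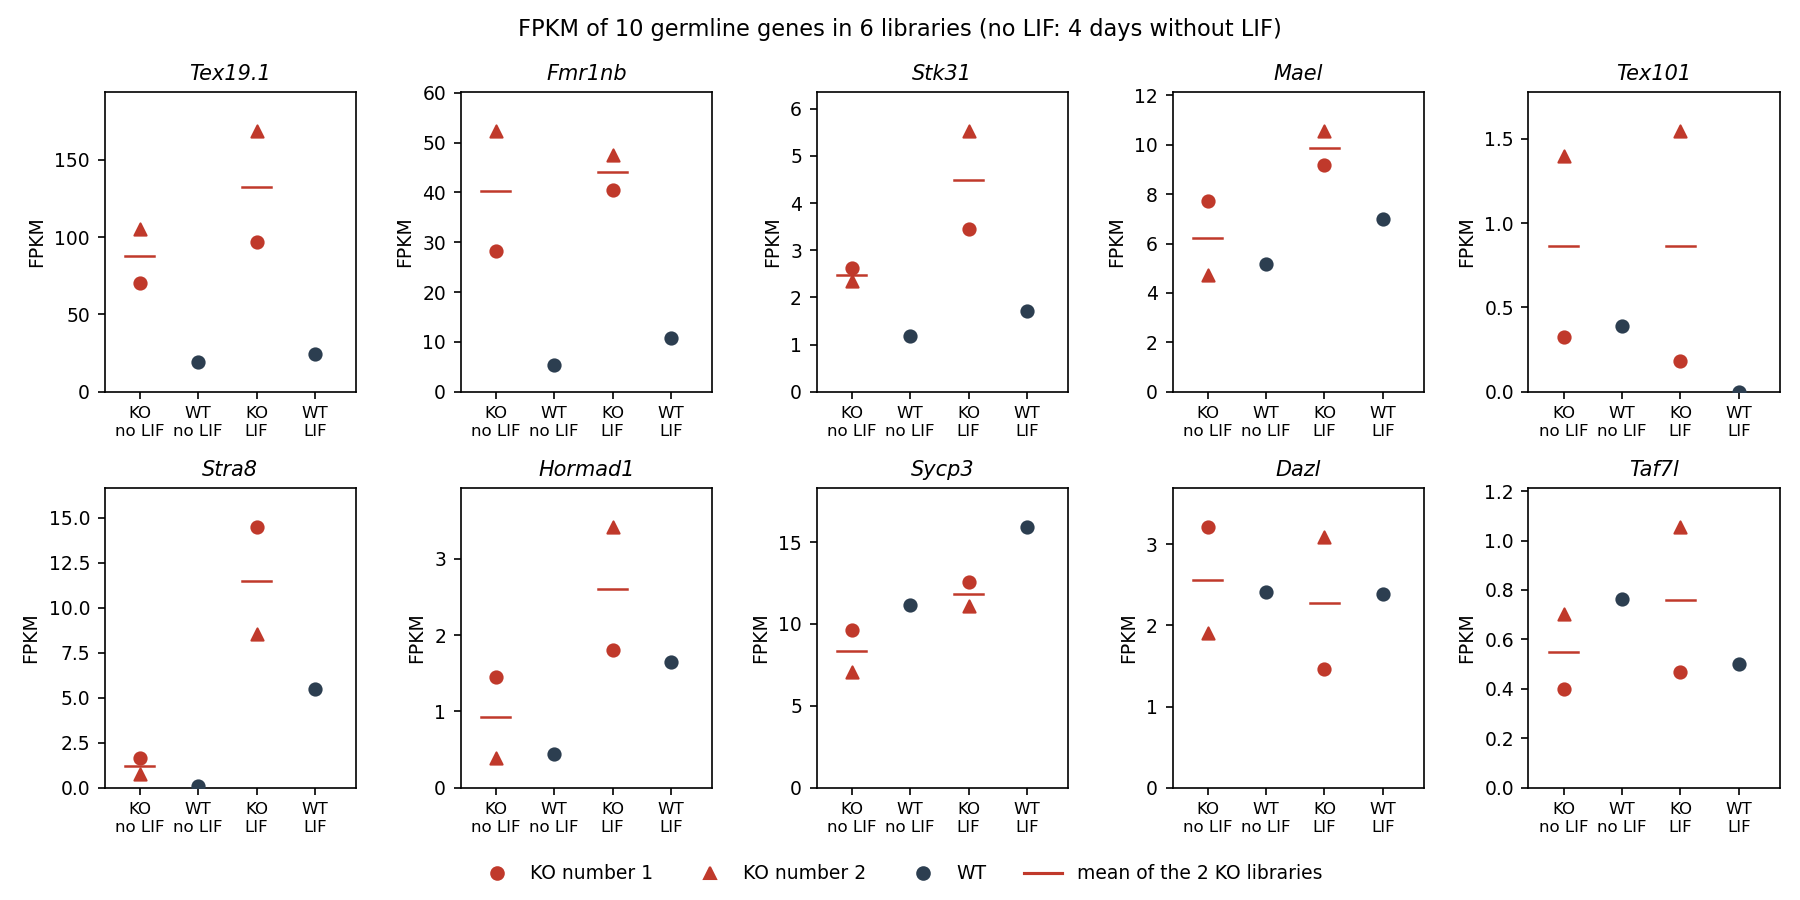
FPKM (vertical axis, from 0, a separate scale for each gene) of the 10 genes in KO and WT libraries after 4 days without LIF and with LIF; points are libraries, circles and triangles mark KO numbers 1 and 2, and a line is the mean of 2 KO libraries. Tex19.1, Fmr1nb and Stk31 were higher in every KO library than in either WT library, and Stra8 and Hormad1 were lower in every library after LIF removal than in any library with LIF.

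The 10 genes were chosen by name with results from these 6 libraries known, that is, with fold changes between genotypes and between media in view. In those results Stra8 stood among the largest falls on LIF removal, and Tex19.1 and Fmr1nb among the largest rises in KO cells, so these 3 differences are given with no p. Which values chose the other 7 genes is not recorded, and the adjusted p-values printed for them describe these libraries and are not independent evidence. Differences are of log2(FPKM + 1), which understates changes of low genes, with SE and Benjamini-Hochberg adjusted p over all 11785 genes from limma. The KO difference over both media counts 4 KO and 2 WT libraries as independent. If a KO number marks the same line in both media, its p-values may be too small. No alternative took the line as the unit for this KO difference. In bulk RNA, a change in the number of cells that express a gene and a change in RNA per cell cannot be told apart.

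Stra8 encodes the factor that starts the meiotic program. It was at 1.68 and 0.753 FPKM in KO libraries 1 and 2 and at 0.125 in WT cells after LIF removal, against 14.5 and 8.54 in KO cells and 5.47 in WT cells with LIF. Every library after LIF removal lay below every library with LIF, as for 16.8% of all tested genes. In each medium both KO libraries lay above WT, a pattern that was not counted over all tested genes. After removal the level was 0.116 and 0.0883 times that with LIF in KO numbers 1 and 2, and 0.0229 times in WT cells, where little transcript remained. Over both genotypes the difference on LIF removal was -2.50 (SE 0.24), and in KO cells alone -2.49 (SE 0.32). The KO difference over both media was 0.93 (SE 0.25, adjusted p = 0.0554, limma), short of the threshold of 0.05. It passed in 2 of 11 alternatives: without KO library 2 after LIF removal (1.06, adjusted p = 0.0438) and with a pseudocount of 0.1 (1.73, adjusted p = 0.0461). It did not pass in the others, such as the fit without a filter (adjusted p = 0.145, limma).

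Hormad1 and Sycp3 encode proteins of the meiotic chromosome axis. Hormad1 promotes double-strand breaks and their surveillance. It was at 1.46 and 0.393 FPKM in KO cells and 0.436 in WT cells after LIF removal, against 1.80 and 3.42 in KO cells and 1.65 in WT cells with LIF. The media did not overlap, while KO and WT libraries did. On LIF removal Hormad1 fell by 0.91 (SE 0.27, adjusted p = 0.0477, limma) and kept the call in 4 of 12 alternatives. It lost it without either KO library with LIF (adjusted p = 0.0535 without number 1, and 0.144 without number 2), without KO library 2 after LIF removal (0.122), and without the WT library after LIF removal (0.157) or with LIF (0.160). It was also lost with a pseudocount of 0.1 (0.0511), without a filter (0.0923) and with median ratio scaling (0.0528).

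Sycp3, an axial and lateral element protein of the synaptonemal complex, was the member with the most transcript in WT cells after Tex19.1. It was at 9.63 and 7.06 FPKM in KO cells and 11.1 in WT cells after LIF removal, against 12.5 and 11.1 in KO cells and 15.9 in WT cells with LIF. Each KO library lay below the WT library of its medium, a pattern that was not counted over all tested genes. The KO difference was -0.40 (SE 0.15, adjusted p = 0.143) and the LIF removal difference -0.47 (SE 0.15, adjusted p = 0.0527, limma), neither past the threshold. The second passed in 2 of 12 alternatives. These were the fit without KO library 1 after LIF removal (-0.59, adjusted p = 0.0362) and the replicate block given below. Sycp3 overlaps Chpt1 on the other strand; whether counting used strand is not given, and Chpt1 lay between 4.86 and 8.13 FPKM.

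Dazl encodes an RNA-binding protein that controls translation in germ cells. It was at 3.21 and 1.90 FPKM in KO cells and 2.42 in WT cells after LIF removal, against 1.46 and 3.09 in KO cells and 2.39 in WT cells with LIF. WT values of the media were nearly equal, and KO numbers 1 and 2 changed order between media. Neither difference passed: -0.03 for KO against WT (SE 0.26, adjusted p = 0.954) and 0.10 for LIF removal (SE 0.24, adjusted p = 0.801, limma).

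Tex19.1, Stk31 and Mael act in the control of transposons or of small RNAs in germ cells. Tex19.1, a mammal-specific protein that restrains retrotransposons and is known from ESCs, germ cells and placenta, was the most abundant of the 10. It was at 70.2 and 105 FPKM in KO cells and 19.5 in WT cells after LIF removal, against 96.9 and 169 in KO cells and 24.6 in WT cells with LIF. All 4 KO libraries lay above both WT libraries, at 3.60 and 5.41 times WT after LIF removal and 3.94 and 6.85 times with LIF. The KO difference over both media was 2.21 (SE 0.24). On LIF removal the level was lower within each KO number and in WT cells, as for 6 of the 8 tested genes (33.3% of all tested genes), and the difference of -0.48 (SE 0.22, adjusted p = 0.155, limma) did not pass. Tex19.1 has a close paralog on the same chromosome, Tex19.2, so reads of the pair could be split; Tex19.2 was at 1.92 and 2.17 FPKM in KO cells and 0.631 in WT cells after LIF removal, and at 2.39 and 4.50 in KO cells and 0.596 in WT cells with LIF.

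Stk31, a Tudor domain protein with a kinase-like domain, was at 2.62 and 2.34 FPKM in KO cells and 1.18 in WT cells after LIF removal, against 3.46 and 5.53 in KO cells and 1.72 in WT cells with LIF. All 4 KO libraries lay above both WT libraries. Stk31 rose in KO cells by 0.83 (SE 0.21, adjusted p = 0.0435, limma) and kept the call in 4 of 11 alternatives. It was lost without KO library 2 with LIF (adjusted p = 0.0943), without KO library 1 or 2 after LIF removal (0.0774 and 0.0633), and without the WT library after LIF removal (0.184) or with LIF (0.347), where only 1 medium is compared. It was also lost after quantile normalization (0.0655) and without a filter (0.112). The LIF removal difference was -0.53 (SE 0.20, adjusted p = 0.0919).

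Mael, a protein of the piRNA pathway, was at 7.74 and 4.74 FPKM in KO cells and 5.18 in WT cells after LIF removal, against 9.18 and 10.6 in KO cells and 6.98 in WT cells with LIF. KO library 2 after LIF removal was the lowest of the 6, and the genotypes overlapped. Neither the KO difference (0.32, SE 0.20, adjusted p = 0.336) nor the LIF removal difference (-0.53, SE 0.18, adjusted p = 0.0746, limma) passed.

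Fmr1nb, an X-linked testis gene beside Fmr1, was at 28.3 and 52.3 FPKM in KO cells and 5.30 in WT cells after LIF removal, against 40.5 and 47.6 in KO cells and 10.8 in WT cells with LIF. All 4 KO libraries lay above both WT libraries, at 5.34 and 9.86 times WT after LIF removal and 3.74 and 4.40 times with LIF. The KO difference over both media was 2.29 (SE 0.25). On LIF removal KO number 2 was higher and number 1 and WT were lower. The difference of -0.43 (SE 0.24, adjusted p = 0.238, limma) did not pass. It passed in 1 of 12 alternatives, without KO library 2 after LIF removal (-0.74, adjusted p = 0.0189), the number that had gone the other way.

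Taf7l encodes a germ cell relative of a subunit of the general transcription factor TFIID. It was at 0.400 and 0.701 FPKM in KO cells and 0.763 in WT cells after LIF removal, against 0.467 and 1.05 in KO cells and 0.500 in WT cells with LIF, so genotypes and media overlapped. Tex101, a surface protein of male germ cells needed for sperm function, was at 0.325 and 1.40 FPKM in KO cells and 0.388 in WT cells after LIF removal, against 0.183 and 1.55 in KO cells and a listed 0 in WT cells with LIF. Both libraries of KO number 2 were above the other 4 libraries.

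**Figure D2:**
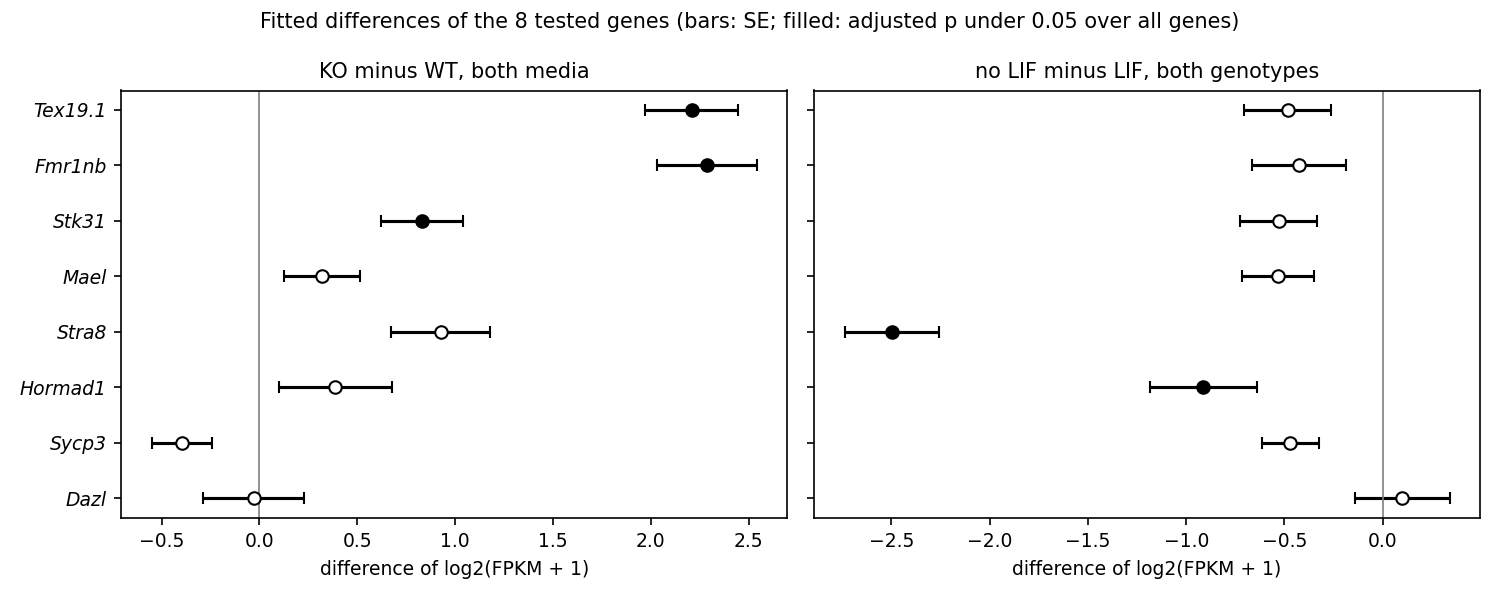
Fitted differences of log2(FPKM + 1) for the 8 tested genes (points) with SE (bars), KO minus WT over both media on the left and 4 days without LIF minus LIF over both genotypes on the right; filled points have an adjusted p under 0.05 over all genes. Tex19.1 and Fmr1nb stand above 2 on the left and Stra8 at -2.50 on the right. These 3 differences were known when the genes were chosen, so nothing is read from their fill.

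In KO against WT cells over both media, 3 of the 8 tested genes were called, all higher (Tex19.1, Fmr1nb and Stk31), where 5.79% of all tested genes were called higher and 4.67% lower. The same 3 were the genes with all 4 KO libraries above both WT libraries, a pattern of 11.9% of tested genes. The median difference of the 8 was 0.61, against -0.03 for all tested genes. Since earlier results shaped the list, nothing is read from these shares.

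Within a single medium, none of the 8 was called by limma, where 7 genes (0.0594%) were called after LIF removal and 5 (0.0424%) with LIF. At an unadjusted p under 0.05 there were 3 of the 8 in each medium, against 15.5% of tested genes after LIF removal and 16.7% with LIF. Tex19.1 and Fmr1nb, whose KO differences were known when the genes were chosen, are counted in both, so nothing is read from these counts; the third was Stra8 after LIF removal and Stk31 with LIF. Each of these fits takes its spread from the pairs of KO libraries alone, and the lone WT library is assumed to vary like them. With 1 KO library left out, 0 to 2 members were called after LIF removal (2 without either KO library with LIF, 1 without KO library 1 after LIF removal and 0 without number 2). With LIF it was 0 or 1 (0 without KO library 2 with LIF, and 1 without any other KO library).

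On LIF removal over both genotypes, 2 of the 8 were called, both lower (Stra8 and Hormad1), where 12.7% of tested genes were called lower and 8.73% higher. The same 2 were the genes with all 3 libraries after LIF removal below all 3 with LIF, as were 16.8% of tested genes; none had the opposite pattern, against 14.9%. The difference was negative for 7 of the 8, with a median of -0.51 against -0.03 for all tested genes. Stra8 was among the values known when the genes were chosen. Nothing is read from these counts, or from those that follow for KO cells alone and for WT cells. In KO cells alone Stra8 was the member called (1 of 8, lower; 6.92% of tested genes were called, 3.88% lower), and it was not called there without a filter on low values. In WT cells, 1 library against 1 and without a test, Stra8 was the 1 of 8 that differed by at least 1 on the log2 scale (-2.52), as did 4.56% of tested genes in that direction, with 3.8% in the other; Fmr1nb (-0.91) and Hormad1 (-0.89) came next.

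**Figure D3:**
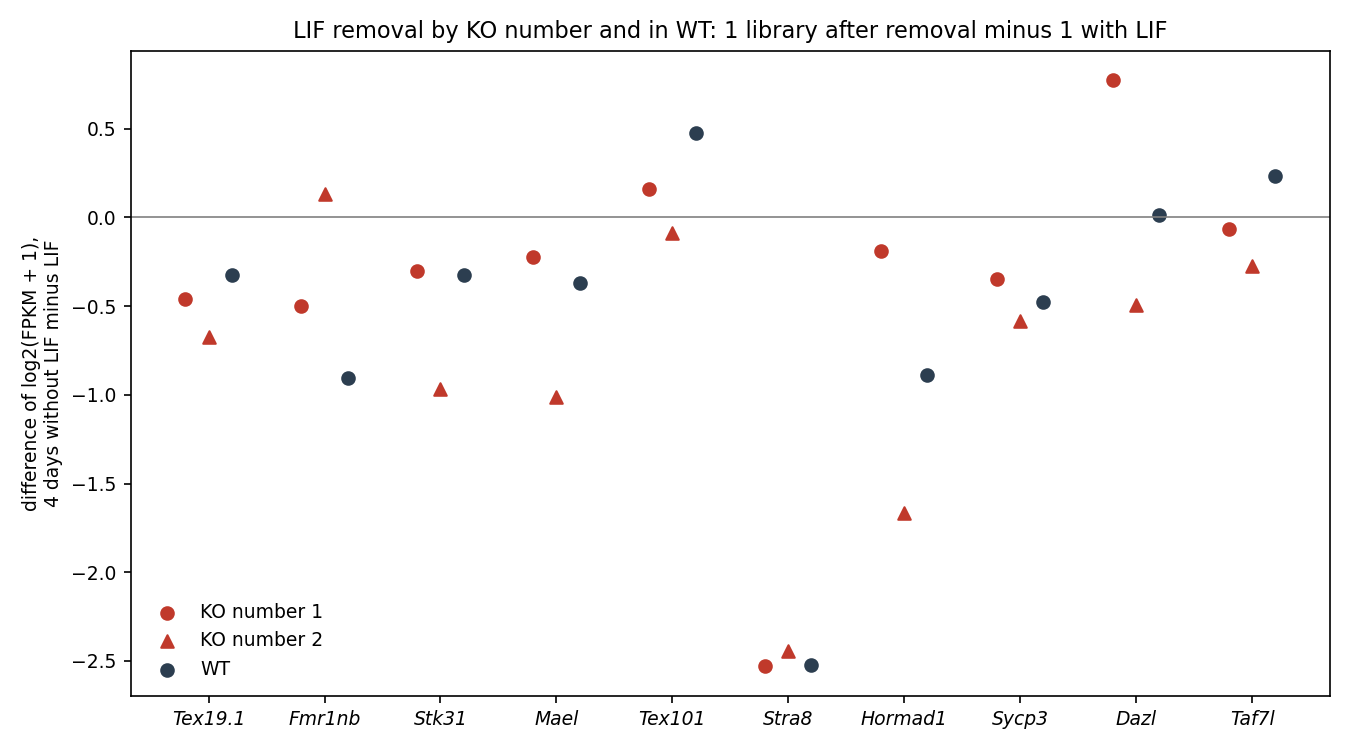
Difference of log2(FPKM + 1), 4 days without LIF minus LIF, for KO number 1, KO number 2 and WT (1 library against 1 each) for the 10 genes. The 3 points lie between -2.53 and -2.44 for Stra8 with this pseudocount of 1 (with 0.1, KO at -3.04 and -3.34 and WT at -4.63), and farther apart for Hormad1, from -1.66 to -0.19, and Dazl, from -0.49 to 0.77.

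The response to LIF removal itself was compared between genotypes. No member was called for the difference of responses, KO minus WT, by limma, none was under an unadjusted p of 0.05, and no gene of the table was called (340 at an unadjusted p under 0.05). For Fmr1nb, the farthest from 0 of the 8, it was 0.72 (SE 0.48, adjusted p = 0.9996). For Stra8 the difference of responses was 0.04 (SE 0.55), a value that depends on the pseudocount because WT cells held 0.125 FPKM after LIF removal. With a pseudocount of 0.1 it was 1.44 (SE 0.78, adjusted p = 0.9998, limma), also not called. The SE lay between 0.34 and 0.63 for the 8 genes with a pseudocount of 1, and a missing call does not show that the responses were alike.

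The positions of the genes bear on the KO comparison, since whole stretches of the genome differ in level between these KO and WT libraries. Tex19.1 lies on chromosome 11 (121146143 to 121148319, GENCODE M21), where 36.4% of 996 tested genes were called higher in KO cells. The median of the 99 tested genes within 5 Mb of it was 0.37 and 0.44 above WT in KO libraries 1 and 2 after LIF removal, and 0.47 and 0.45 with LIF. Tex19.1 itself was 1.80, 2.38, 1.93 and 2.73 above WT in those libraries. On chromosome 6, which holds Stk31 and Stra8, 19.7% of 532 tested genes were called higher and 14 genes lower, with chromosome medians between 0.09 and 0.17, against 5.79% called higher among all tested genes. Stk31 (49395604 to 49469501) had neighbours within 5 Mb with medians between -0.09 and 0.00, and Fmr1nb (chromosome X, 68761839 to 68804567) between -0.06 and 0.12. Stra8 (34920163 to 34939344) had neighbour medians between 0.01 and 0.12. Around the other 4 tested genes, Mael (chromosome 1), Hormad1 (3), Sycp3 (10) and Dazl (17), they lay between -0.25 and 0.15.

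**Figure D4:**
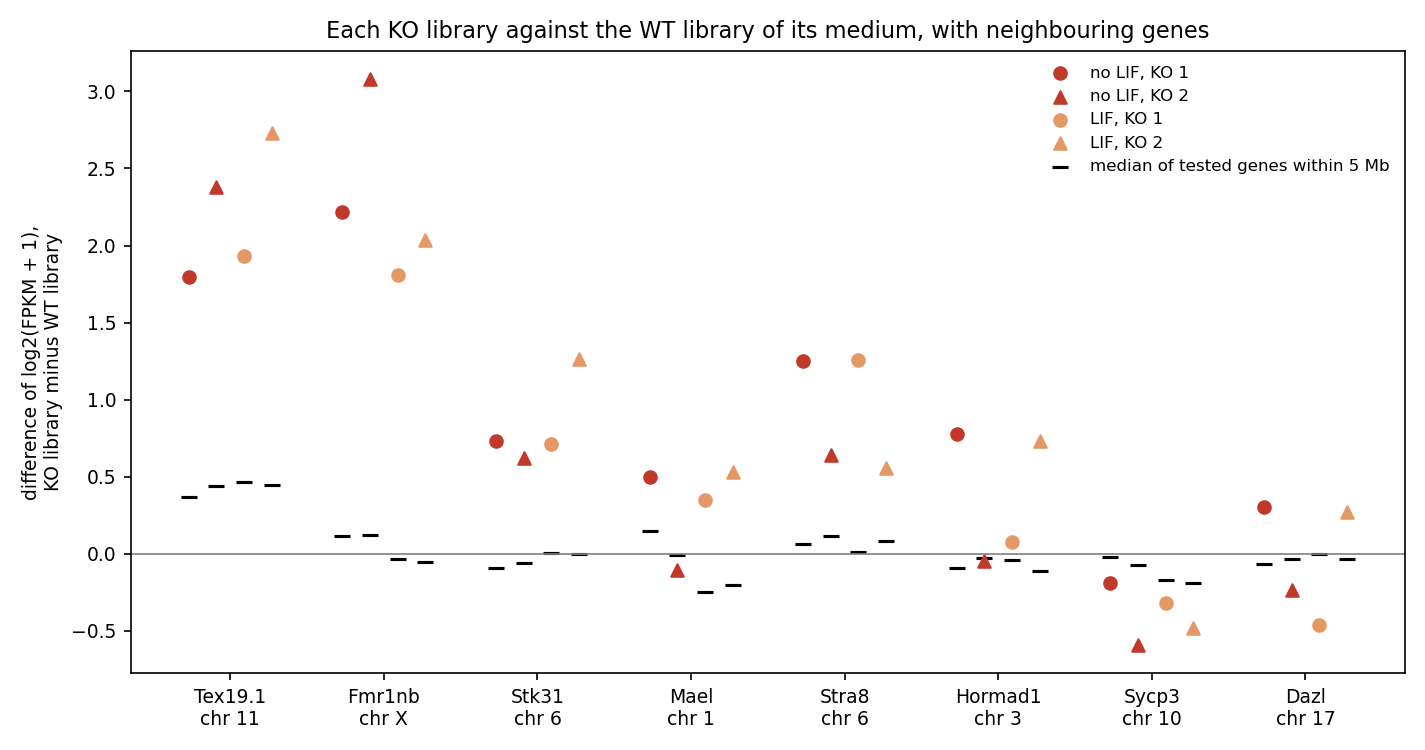
Difference of log2(FPKM + 1) between each KO library and the WT library of its medium for the 8 tested genes (circles and triangles, KO numbers 1 and 2), with dashes for the median of tested genes within 5 Mb. The neighbours of Tex19.1 lie between 0.37 and 0.47 and Tex19.1 itself between 1.80 and 2.73; neighbours of the other 7 genes stay between -0.25 and 0.15.

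KO numbers 1 and 2 differed in several members. In both media number 2 was higher for Tex19.1 (1.501 times number 1 after LIF removal and 1.74 times with LIF), Fmr1nb (1.85 and 1.17 times), Taf7l (1.75 and 2.26 times) and Tex101 (4.31 and 8.43 times), and lower for Stra8 (0.449 and 0.590 times) and Sycp3 (0.733 and 0.885 times). For Dazl, Mael, Hormad1 and Stk31 number 2 was below number 1 after LIF removal and above it with LIF. The share of all tested genes that kept the order of the KO numbers in both media was not counted. Nothing particular to these genes is read from the orders. Markers of 2-cell-like cells, a rare state of ESC cultures, were also higher in number 2: their sum was 2.33 and 8.24 FPKM in KO libraries 1 and 2 after LIF removal, with 2.36 in WT cells, and 1.10 and 4.59 FPKM with LIF, with 3.05 in WT cells. Of 7 such markers 6 were found, 2 of them averaged 1 FPKM or more, and Tcstv1 was at 0 in all 6. Fibroblast (feeder) markers summed to 5.60 and 8.36 FPKM in KO cells and 5.96 in WT cells after LIF removal, against 7.60 and 8.23 in KO cells and 3.33 in WT cells with LIF. Of these 7 markers 1, Thy1, averaged 1 FPKM or more, and it made up most of the sum (7.01 of 7.60 FPKM in KO library 1 with LIF). The part of these cells in the results was not tested.

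Other meiotic genes were described from a list of 47 symbols (older names included) without the members above. Of these, 43 were found and 24 tested. The 6 gene lists, this one included, were chosen with earlier results of these data known. Their counts and adjusted p-values describe these libraries and are not independent evidence. For this list and those that follow, the shares of all tested genes are 5.79% called higher and 4.67% lower in KO cells over both media, and 8.73% higher and 12.7% lower on LIF removal; the median of all tested genes was -0.03 in each. In KO cells 5 of the 24 were higher and none lower, with a list median of 0.06: Rec114, a partner of the break machinery, by 1.69 (SE 0.19, adjusted p = 0.00848), the axis protein Hormad2 by 2.02 (SE 0.29, adjusted p = 0.0111), the histone mark reader Zcwpw1 by 0.86, the meiotic cohesin Rec8 by 0.84 and the recombination cofactor Psmc3ip by 0.52. Hormad2 was at 3.45 and 3.04 FPKM in KO cells and 0.352 in WT cells after LIF removal, against 5.45 and 11.4 in KO cells and 0.713 in WT cells with LIF. Rec114 was at 2.10 and 3.16 FPKM in KO cells and a listed 0 in WT cells after LIF removal, against 10.8 and 13.1 in KO cells and 3.44 in WT cells with LIF. All 4 KO libraries lay above both WT libraries for Hormad2, as for 11.9% of all tested genes. KO and WT overlapped for Rec114, whose WT level with LIF exceeded both KO levels after removal. Hormad2 and Psmc3ip lie on chromosome 11.

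On LIF removal 4 of the 24 meiotic genes were lower and 1 higher (list median -0.28), against 12.7% and 8.73% of all tested genes. Rec114 fell by 1.95 (SE 0.18, adjusted p = 0.00116), Hsf2bp, which binds BRCA2 in meiotic recombination, by 1.60 and the cohesin subunits Stag3 by 0.95 and Smc1b by 0.83, while Tex15, a factor of recombination and transposon silencing, rose by 1.16. The directions thus differed among members of this list.

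Genes of the piRNA pathway and of transposon defence numbered 21 found of 23, with 14 tested. In KO cells 2 of the 14 were higher and 1 lower (median 0.17), against 5.79% and 4.67% of all tested genes: Fkbp6, a co-chaperone of piRNA production, rose by 1.52 (SE 0.38, adjusted p = 0.0428), Tex19.2, on chromosome 11, by 1.17, and Tdrd12 fell by 0.55. On LIF removal 3 were lower and 1 higher (median 0.09). Tdrd12, a Tudor domain helicase, fell by 1.25 (SE 0.13, adjusted p = 0.00145), Gtsf1 by 1.07 and Pld6 by 0.72. Ddx4 (Vasa), the germ cell helicase, which is also in the specification list, rose by 0.68; it was at 14.8 and 13.7 FPKM in KO cells and 10.8 in WT cells after LIF removal, against 8.31 and 10.5 in KO cells and 5.28 in WT cells with LIF.

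Germ cell specification and identity genes were all found, 22 symbols, with 13 tested. In KO cells 1 was higher and 1 lower (median 0.14). Dppa3 (Stella, chromosome 6), a maternal and germ cell factor that protects DNA methylation marks, rose by 1.10 (SE 0.16, adjusted p = 0.0111), and Prdm1 (Blimp1), a repressor that sets primordial germ cell fate, fell by 1.01 (SE 0.18, adjusted p = 0.0166). Hnrnpf itself lies on chromosome 6 (117900324 to 117925622), as does Dppa3 (122626410 to 122630272). Medians of the neighbours of Dppa3 were not taken, and the part of its position in the rise was not tested. Dppa3 was at 32.1 and 26.2 FPKM in KO cells and 14.4 in WT cells after LIF removal, against 50.5 and 70.9 in KO cells and 24.95 in WT cells with LIF. Prdm1 was at 3.62 and 2.93 FPKM in KO cells and 6.10 in WT cells after LIF removal, against 4.61 and 4.82 in KO cells and 13.0 in WT cells with LIF. All 4 KO libraries lay above both WT libraries for Dppa3, as for 11.9% of all tested genes. They lay below both for Prdm1, as for 13% of all tested genes. On LIF removal 5 of the 13 were lower and 2 higher (median -0.61). Lowest in p (limma) were Dppa3 (-0.93), the germ cell gene Sohlh2 (-1.28), the intercellular bridge protein Tex14 (-1.28) and Prdm14 (-1.13). Of 17 X-linked testis genes, 17 were found and 4 tested. In KO cells 1 of these was higher, the ubiquitin protease Usp26 (1.64, SE 0.21, adjusted p = 0.00928), and on LIF removal 1 was lower, the ESC gene Nr0b1 (Dax1, -1.91).

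**Figure D5:**
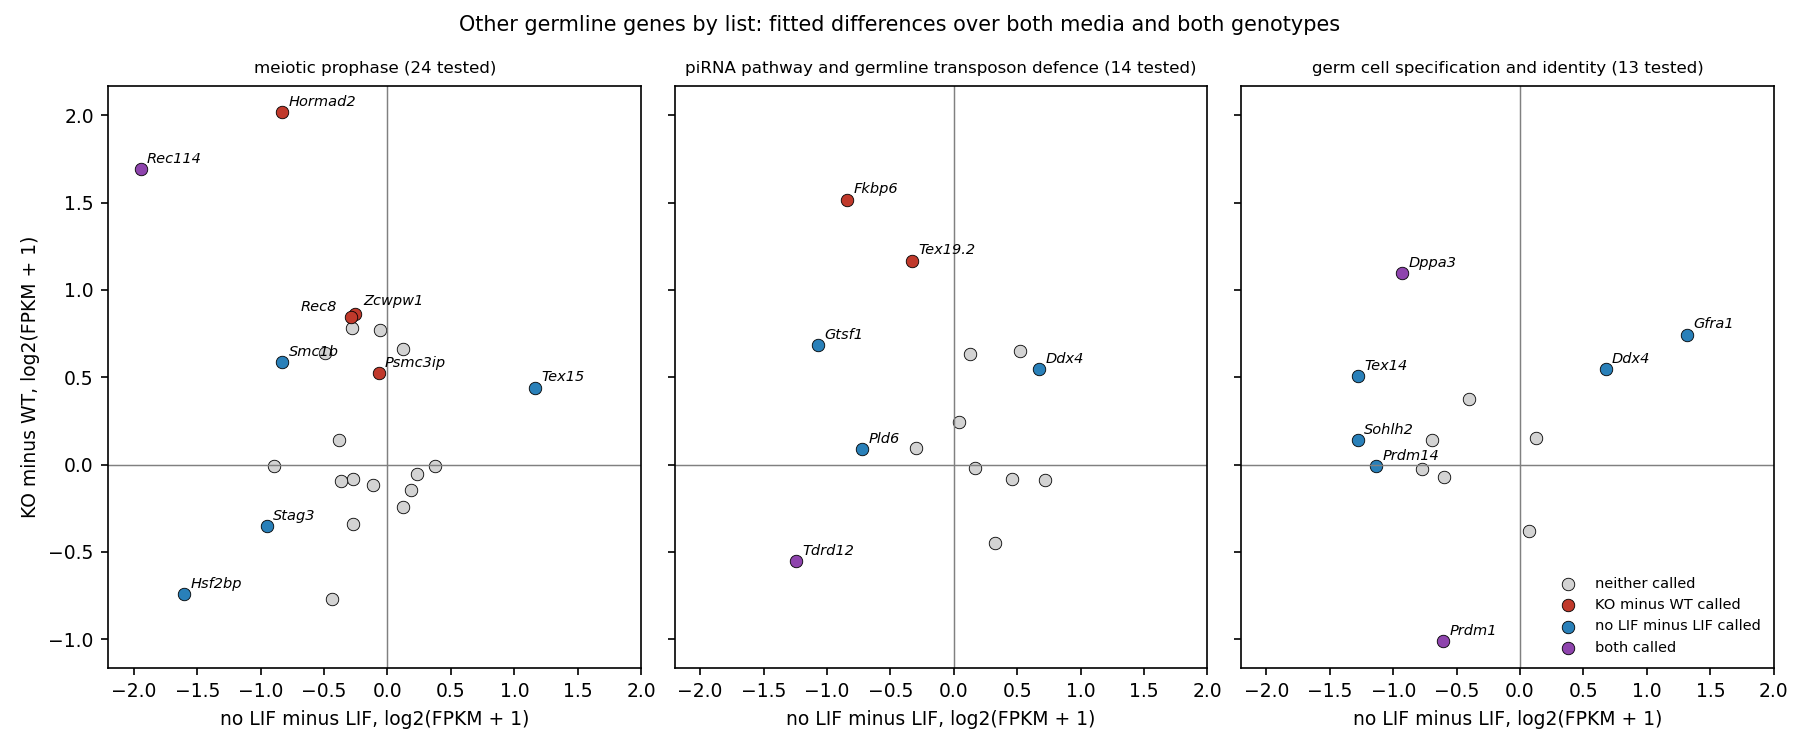
Fitted differences of log2(FPKM + 1) for tested genes of 3 germline lists without the 10 members, 4 days without LIF minus LIF on the horizontal axis and KO minus WT on the vertical axis; colours mark an adjusted p under 0.05 in either comparison. Hormad2 (2.02) and Rec114 (1.69) are highest on the vertical axis and Prdm1 (-1.01) lowest.

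Because retinoic acid induces Stra8, its pathway was described too. All 22 symbols were found and 13 tested; none was called in KO against WT cells by limma, 4 of the 13 had an unadjusted p under 0.05, as had 27.7% of all tested genes, the smallest adjusted p was 0.101 (Rara), and the list median was 0.27. On LIF removal 3 were lower and 1 higher, while the list median was 0.41. The receptors Rara (-0.95, SE 0.14, adjusted p = 0.00423), Rarg (-0.92, SE 0.12, adjusted p = 0.00253) and Rxrb (-0.57) fell with Stra8, and Rdh10, which makes retinaldehyde, rose by 0.78. Rara was at 31.2 and 25.1 FPKM in KO cells and 23.3 in WT cells after LIF removal, against 65.9 and 54.5 in KO cells and 38.7 in WT cells with LIF. Its gene lies on chromosome 11. The receptor Rxra was not called. It was at 4.17 and 5.40 FPKM in KO cells and 4.80 in WT cells after LIF removal, against 3.03 and 4.27 in KO cells and 2.85 in WT cells with LIF. The retinoic acid target Cyp26a1 stayed under the level for testing, with a mean of 0.821 FPKM. Its level was 0.607 and 2.20 FPKM in KO cells and 0.842 in WT cells after LIF removal. With LIF it was 0.0469 and 0.977 in KO cells and 0.251 in WT cells. Both genes were thus higher after LIF removal in each KO number and in WT cells.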

How the data were processed

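RNA was sequenced as 150 bp read pairs from total RNA, per the labels' protocols. The authors deposited 1 table of FPKM values for the 6 libraries; STAR, Cufflinks and the mm10 build are named in the submitters' processing notes, with no versions. Strand handling is not stated in the labels. The 10 genes and 6 gene lists were chosen with earlier results of these data known. Differences were fitted on log2(FPKM + 1) with limma 3.58.1 (R 4.3.3, intensity trend) over the 11785 of 25170 genes that averaged 1 FPKM or more. Genotype and medium entered an additive fit of all 6 libraries, and a fit of 4 groups gave effects within a medium, LIF removal in KO cells and the difference of responses. P-values were Benjamini-Hochberg adjusted over all tested genes, with a threshold of 0.05. LIF removal in WT cells, 1 library against 1, has no test. The fits were run on simulated data in which all libraries were independent. Such data cannot show how the p-values behave if KO libraries of the same number are linked. From each list, genes past the threshold were named, at most 4 per comparison by lowest p; Psmc3ip, Smc1b and Cyp26a1 were added after their values were seen. For Stra8, Dazl and Tex19.1 the 3 genes with the nearest centred log2 profile were named. Positions are from GENCODE M21, where 11566 tested genes had 1 position. The alternatives were a pseudocount of 0.1, no filter, median ratio scaling, quantile normalization, no trend, a replicate block and leaving out each library.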

Additional observations from a re-analysis of the deposited data

Results flagged for a closer look

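Taf7l moved in opposite directions on LIF removal in the genotypes. The log2(FPKM + 1) difference was -0.0675 in KO number 1 and -0.272 in KO number 2, against 0.233 in WT cells, all at levels near or below 1 FPKM. Taf7l was under the level for testing, so this difference was not tested in the fits used above; in the fit without a filter the difference of responses was -0.40 (SE 0.39, adjusted p = 0.985, limma).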

How the results depend on the processing

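Of 280 values of single genes under alternatives, 244 kept their direction and side of the threshold, 20 lost a call, 8 gained one and 8 changed sign. The 244 include values that were not called in the main fit. Calls were lost for Hormad1 on LIF removal (8 of 12 alternatives) and for Stra8 in KO cells (1 of 12). For KO over both media they were lost for Stk31 (7 of 11), Tex19.1 (2 of 11) and Fmr1nb (2 of 11). The sign changes came from leaving out a library: the KO difference of Dazl ranged from -0.18 to 0.14, its LIF removal difference from -0.12 to 0.29 over both genotypes and from -0.22 to 0.51 in KO cells, and that of Fmr1nb in KO cells from -0.62 to 0.25. Leaving out each library in turn gave 0 to 3 members and 5 to 994 genes called for KO over both media, where the lowest counts came without a WT library (7 genes without the one with LIF, 5 without the one after removal). Tex19.1 and Fmr1nb were then not called either. For LIF removal over both genotypes it gave 1 to 3 members and 817 to 1924 genes, for KO with LIF 0 to 1 and 4 to 14, for KO after LIF removal 0 to 2 and 5 to 16, for LIF removal in KO cells 1 to 1 and 124 to 821, and for the difference of responses 0 to 0 and 0 to 1. Without a filter, 335 genes were called for KO over both media, 0 in either single medium, 1 member for LIF removal over both genotypes, and 0 members and 0 genes for LIF removal in KO cells. More genes enter the adjustment there. With a pseudocount of 0.1, 1 member was called for LIF removal over both genotypes and 13 genes for KO after LIF removal, and 3 members and 1550 genes passed a log2 difference of 1 in WT cells. Median ratio scaling gave 1 member for LIF removal. With no trend, 0 genes were called for KO with LIF and 4 after LIF removal. The cause was not tested. With KO number and WT as a replicate block, 5 members were called for LIF removal over both genotypes (Stra8, Hormad1, Mael, Sycp3 and Tex19.1), and in KO cells 2 members (Stra8 and Tex19.1) and 2621 genes, against 816 without it. Deviations from the group means correlated at 0.366 over 11785 genes between same-numbered KO libraries; with only 2 numbers this does not establish a pairing. Scaling moved the median of all genes by less than 0.1. With 1 WT library a medium, WT spread is not measured, and the depth behind low values is unknown.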

Other observations

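Repressors of germline genes were all found and tested, 27 of 27. This list too was chosen with earlier results of these data known, so its counts are not independent evidence. In KO cells over both media 2 were higher and 2 lower, where 10.5% of all tested genes were called. The heterochromatin protein gene Cbx1 rose by 0.62 (adjusted p = 0.0154); it lies on chromosome 11, where 36.4% of tested genes were called higher and chromosome medians were 0.42 to 0.48 above WT. Atf7ip (chromosome 6, 19.7% called higher), a partner of the methyltransferase SETDB1, rose by 0.68 (adjusted p = 0.0199), and Uhrf1, which maintains DNA methylation, fell by 0.46 and Wdr5 by 0.38 (limma). On LIF removal 3 were higher and 2 lower, where 21.4% of all tested genes were called: Yaf2 rose by 1.04 and E2f6 by 0.50, both of Polycomb complexes, and the DNA methyltransferase Dnmt3b by 0.84, while Uhrf1 fell by 0.58 and the histone methyltransferase Ehmt2 by 0.54. The list medians were -0.11 for KO and -0.17 for LIF removal, against -0.03 for all tested genes in each.

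Genes were ranked by the Euclidean distance of their centred log2 profile over the 6 libraries. Nearest to Stra8 were Mt3 (0.95), Aurkc (1.08) and Itgb7 (1.21). Aurkc was at 0.306 and 0.0867 FPKM in KO cells and 0.0722 in WT cells after LIF removal, against 4.60 and 3.61 in KO cells and 1.85 in WT cells with LIF. Nearest to Dazl were Ccnb1ip1 (0.26), Dnajb14 (0.28) and Tmem263 (0.30), and nearest to Tex19.1 were Ifi35 (0.63), Hormad2 (0.76) and Usp26 (0.81). Ifi35 was at 5.01 and 9.39 FPKM in KO cells and 1.25 in WT cells after LIF removal, against 7.85 and 9.54 in KO cells and 1.05 in WT cells with LIF. Ifi35 and Hormad2 lie on chromosome 11 like Tex19.1, where 36.4% of tested genes were called higher in KO cells. Usp26 lies on chromosome X.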
